A study of Mus musculus with 56 samples.

Results

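The 8 genes described here are Akr1b3, Akr1b7, Akr1b8, Akr1c6, Akr1c12, Akr1c13, Akr1c14 and Akr1c18, which encode aldo-keto reductases of the Akr1b and Akr1c subfamilies. They were taken as a list of names from the 53379 genes of a count table, after the Ensembl identifiers had been matched to gene symbols. The table covers 7 regions of the reproductive tract of male C57BL/6 mice, namely the testis, the efferent ductules, 4 segments of the epididymis (initial segment, caput, corpus, cauda) and the vas deferens. Each region had 4 libraries from adult mice of 3 months and 4 from aged mice of 21 months, without treatment or genetic change in either group, which makes 56 libraries. Left and right organs of a mouse were dissected together, 4 mice of each age gave all 7 regions, and the sources do not say which libraries of different regions came from the same mouse. Whole tissue was sequenced, so fewer cells of a type and less RNA per cell cannot be told apart.

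Aldo-keto reductases use NADPH to reduce aldehydes and ketones to alcohols. Akr1b3 is aldose reductase, which turns glucose into sorbitol, the entry step of the polyol pathway. Akr1b7, long known as the vas deferens protein of the mouse, is an androgen-dependent aldehyde reductase of that epithelium, and Akr1b8 is a related reductase of retinal and lipid aldehydes. The Akr1c genes are better known for steroids: Akr1c6 encodes a 17-ketosteroid reductase that makes testosterone, Akr1c14 a 3-ketosteroid reductase that inactivates dihydrotestosterone, and Akr1c18 a 20-ketosteroid reductase that inactivates progesterone. Akr1c12 and Akr1c13 are closely related genes whose substrates are less well defined.

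On build GRCm38 the 3 Akr1b genes lie together on chromosome 6. Akr1b3 is on the reverse strand at chr6:34302434-34317478, Akr1b8 on the forward strand at chr6:34354119-34368463 and Akr1b7 on the forward strand at chr6:34412334-34423142. The 5 Akr1c genes lie on chromosome 13, with Akr1c13 on the forward strand at chr13:4191150-4205596 and Akr1c12 on the reverse strand at chr13:4268176-4279433. How far reads can tell the members apart sets what their counts mean, so their coding sequences were aligned. Akr1c12 and Akr1c13 were identical at 935 of 972 aligned coding bases (96.19%), against 85.74% for Akr1b7 and Akr1b8. The stretch below, coding bases 34 to 183, is the same in both, so that a read lying within it matches Akr1c12 and Akr1c13 equally:
Akr1c12 and Akr1c13: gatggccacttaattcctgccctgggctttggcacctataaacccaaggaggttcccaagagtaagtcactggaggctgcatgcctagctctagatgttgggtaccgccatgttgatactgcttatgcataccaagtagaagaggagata
Coding bases 409 to 558 of Akr1b7 and Akr1b8 are shown for contrast, with the 5 differing bases in capitals:
Akr1b7: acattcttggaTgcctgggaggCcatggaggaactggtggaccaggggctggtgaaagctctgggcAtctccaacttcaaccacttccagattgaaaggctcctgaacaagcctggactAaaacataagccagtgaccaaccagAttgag
Akr1b8: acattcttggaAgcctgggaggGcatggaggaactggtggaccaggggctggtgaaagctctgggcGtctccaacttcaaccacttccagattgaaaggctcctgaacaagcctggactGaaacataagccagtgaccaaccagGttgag
Of all 150-base stretches of the longest transcript models, 7.104% of those of Akr1c12 and 7.098% of those of Akr1c13 occurred in the other gene, and none of those of Akr1b7 or Akr1b8 occurred in another gene. For Akr1b3 the share was 43.38%, in the processed copies Gm12138, Gm6644 and Gm6736, so its counts are the least certain of the set.

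The region upstream of Akr1b7 is shown because the gene was so much higher in 1 region than in the others. It is RefSeq sequence on GRCm38, chr6:34412112-34412333, forward strand, and capitals mark 2 short motifs, both on the opposite strand: AGGTCA, the half-site of the nuclear receptor SF-1, and then AGAACA, a half-site of steroid hormone receptors:
Akr1b7: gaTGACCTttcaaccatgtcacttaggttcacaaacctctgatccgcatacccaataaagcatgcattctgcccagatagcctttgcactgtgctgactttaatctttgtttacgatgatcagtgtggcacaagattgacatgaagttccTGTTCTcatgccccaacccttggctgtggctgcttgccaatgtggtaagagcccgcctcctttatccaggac
Searched on both strands of windows of 250 bases, the SF-1 half-site occurred in 4607 and the steroid receptor half-site in 5284 of all 32851 promoters, so a match describes these letters and not a site in use. The upstream regions of Akr1c12 (chr13:4279434-4279649, reverse strand) and Akr1c13 (chr13:4190937-4191149, forward strand) are shown because these genes are alike there too. Over their whole windows of 250 bases, of which the printed stretches are a part, 235 of 246 aligned bases were identical (95.53%):
Akr1c12: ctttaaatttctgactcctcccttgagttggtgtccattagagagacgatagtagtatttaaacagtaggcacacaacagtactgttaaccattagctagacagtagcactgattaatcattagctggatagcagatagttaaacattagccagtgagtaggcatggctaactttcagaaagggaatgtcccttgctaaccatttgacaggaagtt
Akr1c13: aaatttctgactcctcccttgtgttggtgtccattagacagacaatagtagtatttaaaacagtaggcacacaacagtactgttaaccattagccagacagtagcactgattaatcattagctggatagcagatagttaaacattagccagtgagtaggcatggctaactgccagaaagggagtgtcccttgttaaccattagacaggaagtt
Neither held one of these half-sites, a TATA box (TATAAA, in 12.4% of promoters) or the antioxidant response core (TGACNNNGC, in 10.2%).

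Levels are given as CPM, counts scaled to library size with TMM factors over all 56 libraries. The SE given with a log2 difference is the size of that difference divided by the square root of the test's F statistic. It is not the spread between libraries, which is given as SD. Akr1b7 was by far the highest member in the vas deferens, and its level there exceeded that of each other region at both ages. The 4 vas deferens libraries of 3-month-old mice held 20108, 22576, 19948 and 20364 CPM, a mean of 20749 ± 1230 (SD, n = 4), and the gene took 2.59% of all counts there. The corpus came next with 83.6 ± 3.21 CPM, or 0.403% of the vas deferens level, followed by the efferent ductules with 32.3 ± 15.4, the cauda with 24.9 ± 2.39 and the caput with 14.9 ± 25.3. In the testis 7 counts were found over 4 libraries. The vas deferens stood above the corpus by 8.04 on the log2 scale (SE 0.84, edgeR's quasi-likelihood test, Benjamini-Hochberg adjusted p = 2.45e-09) or 262-fold. Steps between neighbours in the order corpus, efferent ductules, cauda and caput did not pass the test. Of these neighbours, the corpus and efferent ductules did not overlap (79.0 to 86.5 and 18.3 to 52.2 CPM, edgeR adjusted p = 0.0680). The fit took 1 spread per gene over all 7 regions, the caput included. The cauda lay below the corpus (log2 difference -1.81, edgeR adjusted p = 0.0412) and the corpus above the caput (2.37, edgeR adjusted p = 0.00604). The caput mean rests on 1 library at 52.7 CPM, with the others at 0.401 to 5.79.

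Akr1b3 and Akr1b8 were highest in the testis. Akr1b3 measured 59.3, 69.4, 68.4 and 68.2 CPM in the testis at 3 months, and the other regions lay between 8.52 CPM (vas deferens) and 22.1 CPM (cauda) on average. The step from testis to cauda was 1.55 on the log2 scale (SE 0.14, edgeR adjusted p = 1.37e-11) and the ranges did not overlap. The processed copy Gm6644 followed the same order, with 9.78 CPM in the testis and 1.52 CPM in the vas deferens. Akr1b8 had 29.2 ± 2.93 CPM in the testis and 7.66 ± 0.562 in the corpus, a step of 1.84 on the log2 scale (SE 0.25, edgeR adjusted p = 9.87e-08). Its lowest mean at 3 months was 1.68 ± 0.418 CPM, in the caput, which did not differ from the initial segment beyond the error (1.85 ± 0.275, edgeR adjusted p = 0.949).

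Akr1c12 and Akr1c13 had their highest levels in the corpus and cauda and not in the vas deferens or testis. Akr1c12 had 99.4 ± 4.24 CPM in the corpus at 3 months and 35.3 ± 4.02 in the cauda, which differed by 1.56 on the log2 scale (SE 0.20, edgeR adjusted p = 4.95e-07). Akr1c13 had 96.7 ± 18.0 CPM in the cauda and 83.7 ± 3.45 in the corpus, a difference that did not pass the test (0.14 on the log2 scale, SE 0.14, edgeR adjusted p = 0.535). Both had their lowest mean in the testis at 3 months, with 1.48 ± 0.557 CPM for Akr1c12, which did not differ from the initial segment (2.08 ± 0.998, edgeR adjusted p = 0.0758), and 4.44 ± 0.590 for Akr1c13.

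The other 3 Akr1c members were low throughout. Akr1c14 had its highest mean in the testis, 2.01 ± 0.450 CPM, which did not differ from the vas deferens beyond the error (0.39 on the log2 scale, SE 0.34, edgeR adjusted p = 0.299). Akr1c18 had 100 counts over all 56 libraries and was at 0 in 24 of them. All 8 efferent ductule libraries were at 0 for Akr1c18, which at 3 counts per group allows up to 0.0396 CPM at 3 months. Akr1c6 had 15 counts in all and none in the testis, where 3 counts would be 0.0421 CPM at 3 months, so the gene for the 17-ketosteroid reductase was not detectable there at this depth.

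Per kilobase of exon, which allows genes to be compared, mean levels at 3 months in the testis were 19.5 CPM per kb for Akr1b8, 3.10 for Akr1c13, 1.18 for Akr1c12 and 0.619 for Akr1c14. Akr1b3 is left out of this comparison, because its annotated exons sum to 8.384 kb and its longest transcript model is far shorter. In the vas deferens Akr1b7 reached 16198 CPM per kb and Akr1c13, the next of the others, 9.07. In the corpus Akr1c12 (78.8), Akr1b7 (65.3) and Akr1c13 (58.4) lay close to each other on this scale.

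**Figure D1:**
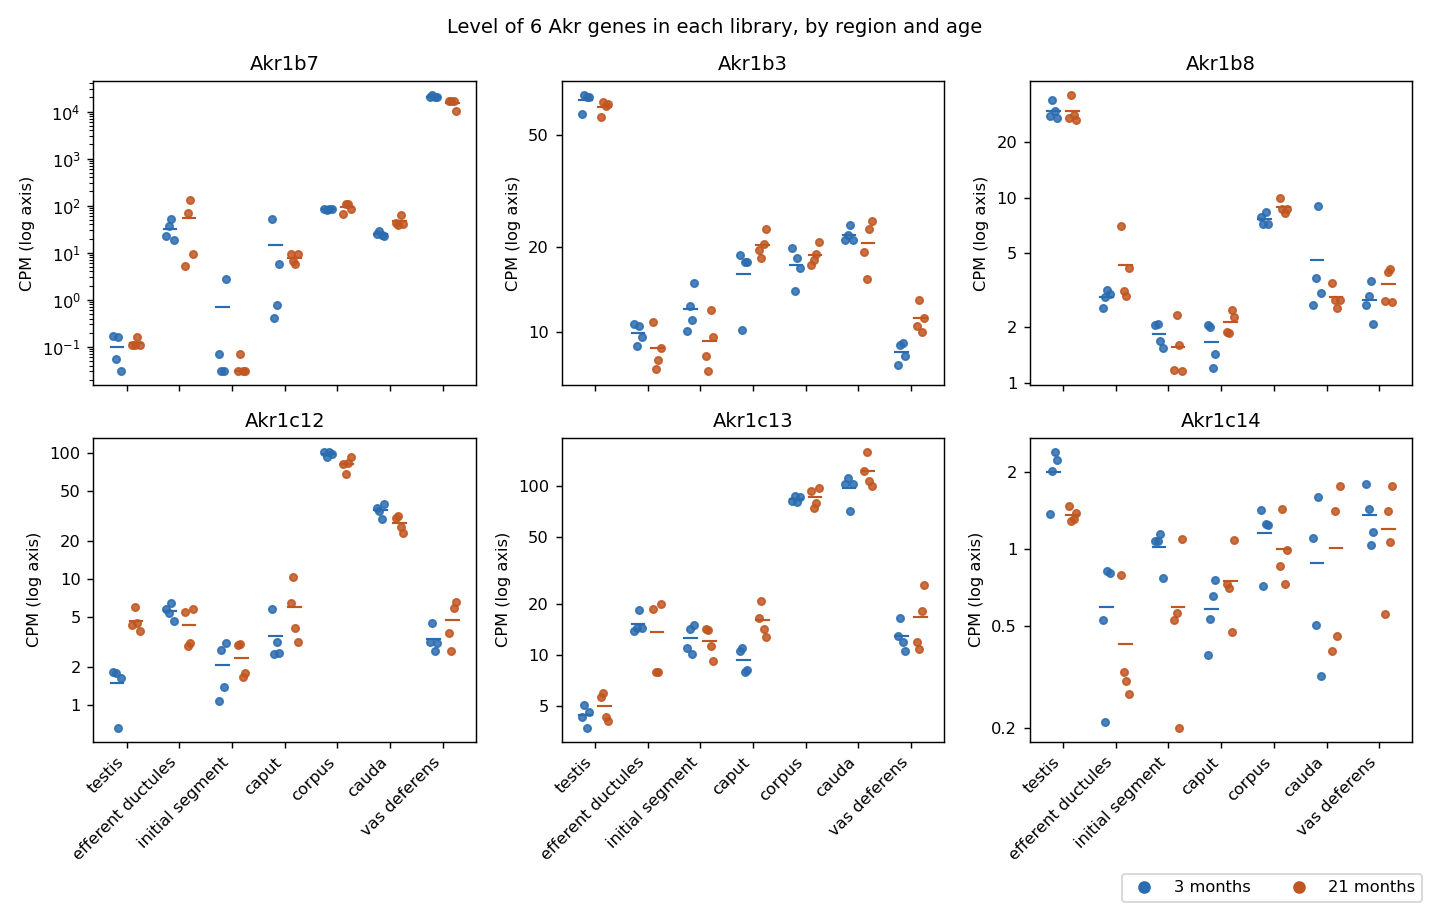
CPM of 6 members in each library (points) with group means (lines), by region, at 3 (blue) and 21 months (orange), on log axes whose range differs between panels; libraries at 0 are drawn at 0.03 CPM. Akr1b7 stands at 10317 CPM or more in the vas deferens, Akr1b3 and Akr1b8 are highest in the testis, and Akr1c12 and Akr1c13 in the corpus and cauda.

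Over the 21 pairs of regions at 3 months, 93 of the 147 tests of the 7 members tested passed an adjusted p under 0.05 (63.3%), beside 49.6% of such tests over all genes. By gene, 18 pairs were called for Akr1c12, 16 each for Akr1b3, Akr1b7 and Akr1c13, 15 for Akr1b8, 7 for Akr1c14 and 5 for Akr1c18, all 5 of them against the efferent ductules, where it had no count. At 21 months 90 of 168 tests passed (53.6%), beside 48.5% over all genes, with Akr1c6 now among the genes tested. Its 4 called pairs all set the initial segment against a region with no count, and 7 of its 8 counts there came from 1 library. At 21 months Akr1b7 (15095 ± 3197 CPM) was still highest in the vas deferens, Akr1b3 (62.8 ± 3.48) and Akr1b8 (29.0 ± 4.48) in the testis, Akr1c12 (81.9 ± 10.7) in the corpus and Akr1c13 (122 ± 26.6) in the cauda.

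Over the 14 group means of log2(CPM + 1), Akr1c12 and Akr1c13 had a Pearson correlation of 0.906, and Akr1b3 and Akr1b8 one of 0.830. These points share libraries and region structure, so the values are descriptions. Among 24911 genes compared, Gfod1 (0.979), Arl4d (0.972) and A330074K22Rik (0.969) were most like Akr1b7. Prox2 (0.981), Tekt5 (0.979) and Acrbp (0.974) were most like Akr1b8, the last of them encoding a sperm acrosome protein. Adh6b (0.978), Slc25a5-ps (0.970) and Gm12217 (0.970) led for Akr1c12, and Ggta1 (0.989), Gm43761 (0.980) and Gm43254 (0.975) for Akr1c13. For Akr1c14 they were Timm17a (0.942), 1810013L24Rik (0.931) and Anapc15 (0.924). For Akr1b3 they were Gm6644 (0.985), which shares its sequence, A430046D13Rik (0.983) and Rbm7 (0.982).

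The study compared the ages in each region to find what changes as the tract grows old. Of 45 tests of a member in a region, 3 passed an adjusted p under 0.05, a share near the 6.27% of such tests over all genes. Akr1c12 rose in the testis, Akr1c13 rose in the caput and Akr1b7 fell in the vas deferens. The 7 regions differed widely in how much of the transcriptome changed, so each count is read beside its region.

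In the testis 1 of 6 members tested was called, beside 0.563% of all genes. Akr1c12 measured 1.83, 1.79, 0.655 and 1.65 CPM at 3 months and 4.32, 5.96, 4.47 and 3.86 at 21 months. Every aged library lay above every young one, and the means stood 3.14-fold apart. The log2 fold change was 1.65 (SE 0.22, edgeR's quasi-likelihood test, Benjamini-Hochberg adjusted p = 0.000306). Akr1c13, whose sequence it partly shares, measured 4.44 ± 0.590 and 5.01 ± 0.953 CPM and was not called (log2 fold change 0.17, SE 0.15, edgeR adjusted p = 0.760). Summed Leydig cell markers overlapped between the ages (432 to 556 CPM at 3 months and 406 to 549 at 21 months), with 1 of 8 called higher and 1 lower. Macrophage markers summed to 97.6 to 127 and 120 to 143 CPM, with 1 of 9 called higher, and duct epithelium markers to 23.9 to 28.04 and 22.4 to 24.3 CPM, with none of 4 called. Smooth muscle markers did not overlap between the ages, with 317 to 351 CPM at 3 months and 288 to 305 at 21 months, and 1 of 9 was called lower. The part of any cell type in the rise of Akr1c12 was not tested.

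The ratio of Akr1c12 to Akr1c13 counts within a library does not depend on how libraries are scaled, and it was compared after the values above had been seen. In the testis it was 0.427, 0.351, 0.176 and 0.354 at 3 months and 0.760 to 1.04 at 21 months. In the cauda it went the other way, from 0.371 ± 0.0476 to 0.231 ± 0.0218, and in the corpus from 1.19 ± 0.0969 to 0.955 ± 0.0821. In these 3 regions the ages did not overlap, and each gave an exact two-sided permutation p of 0.0286 (n = 4 per age), the smallest that 4 against 4 libraries allows. Adjusted over the 7 regions by Benjamini-Hochberg the exact p was 0.0667, so none passed. With only 3 regions at the smallest p none could have passed, so the adjusted p does not decide on these shifts. In the other 4 regions the ages overlapped, and the lowest exact permutation p was 0.2 (initial segment, n = 4 per age).

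**Figure D2:**
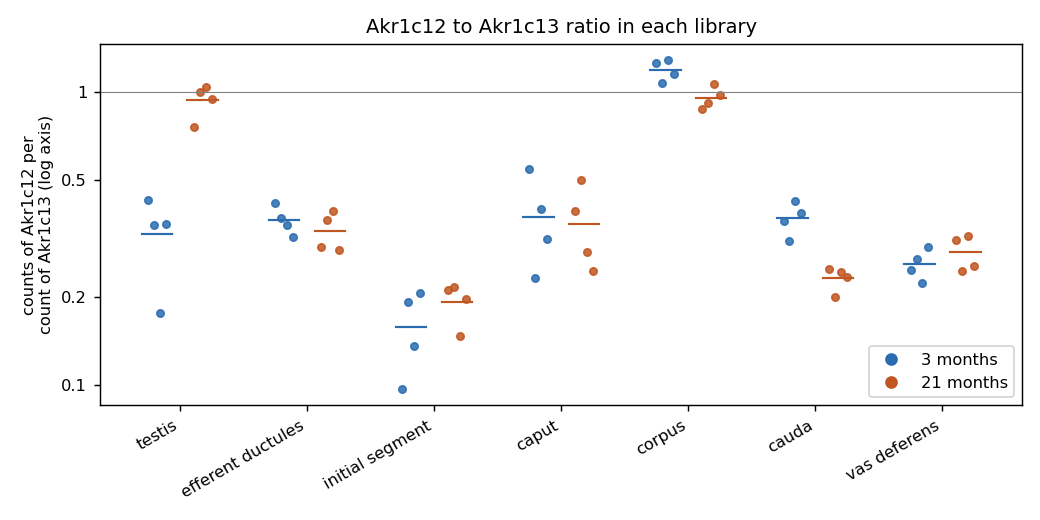
Counts of Akr1c12 per count of Akr1c13 in each library (points) with group means (lines), by region, at 3 and 21 months, on a log axis. The aged testis libraries lie between 0.760 and 1.04, above the young ones at 0.176 to 0.427, and the aged cauda libraries lie below the young ones.

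In the caput 1 of 6 members was called, beside 8.14% of all genes. Akr1c13 measured 10.5, 10.97, 7.998 and 8.18 CPM at 3 months and 16.5, 21.0, 14.4 and 12.9 at 21 months, without overlap. The log2 fold change was 0.73 (SE 0.19, edgeR's quasi-likelihood test, Benjamini-Hochberg adjusted p = 0.0348). The call was lost with library size only (edgeR adjusted p = 0.0715) and without young replicate 3 or 4 or aged replicate 1, 2 or 3 (0.0668 to 0.111). Smooth muscle markers fell in the same comparison, 8 of 9 called, from 1188 to 1556 CPM at 3 months to 857 to 996 at 21 months. In the second young caput library 49.7% of counts fell on Gm42418, against at most 36.0% in any other library, and without it the log2 fold change was 0.87 (edgeR adjusted p = 0.0212). T cell markers went from 2.83 to 4.38 CPM at 3 months to 8.36 to 13.2 at 21 months (3 of 7 called higher), macrophage markers from 154 to 165 to 202 to 242 CPM (3 of 9 higher) and Sertoli cell markers from 115 to 135 to 77.4 to 99.0 CPM (1 of 6 lower). Leydig cell markers summed to 10.84 to 18.5 CPM at 3 months and 12.97 to 38.2 at 21 months, with none of 5 called. In the young corpus they summed to 217.58 to 243.1 CPM. The first and second aged caput libraries held the most of these markers and of Akr1c13. Among the young ones the first held the most of these markers and the second the most Akr1c13. Germ cell markers summed to 118.32 to 159.8 and 111.4 to 118.15 CPM, with 2 of 14 called higher and 2 lower. The part of any of these marker lists in the rise of Akr1c13 was not tested. Akr1b7 measured 52.7, 0.401, 0.767 and 5.79 CPM in the young caput libraries and 5.80 to 9.60 CPM in the aged ones, and its direction was not stable. With all libraries the log2 fold change was -0.96 (edgeR adjusted p = 0.536), with the replicate block 0.52 (edgeR adjusted p = 0.657), and without the first young library 1.58 (edgeR adjusted p = 0.0456).

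In the vas deferens 1 of 6 members was called, beside 19.9% of all genes, the largest share of the 7 regions. Akr1b7 went from 20108, 22576, 19948 and 20364 CPM at 3 months to 17071, 16480, 16513 and 10317 CPM at 21 months. All 4 aged libraries lay below the young ones, at 0.728 times their mean. The log2 fold change was -0.52 (SE 0.16, edgeR's quasi-likelihood test, Benjamini-Hochberg adjusted p = 0.0466). Without the lowest aged library the change was smaller and the call held (-0.38, edgeR adjusted p = 0.00946). The call was lost in 9 of 17 alternative fits, with log2 fold changes from -0.61 to -0.38 over all 17 and the highest adjusted p, 0.735, with all 56 libraries in one fit. Leaving out any of the young libraries (edgeR adjusted p = 0.0979 to 0.113), the second (0.0567) or the third aged library (0.0895) ended it. Akr1b3, at 8.52 ± 0.688 and 11.2 ± 1.34 CPM, did not overlap between the ages and did not pass (log2 fold change 0.34, edgeR adjusted p = 0.0856).

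Other markers moved with age in the same vas deferens libraries. T cell markers summed to 3.75 to 7.22 CPM at 3 months and 18.2 to 55.2 at 21 months, and B and plasma cell markers to 12.7 to 27.6 and 491 to 1114, with 7 of 7 called higher in each list. Seminal vesicle secretion genes summed to 3.13 to 4.86 CPM and 22.5 to 1930 CPM, with 5 of 5 tested called higher. The aged library with the least Akr1b7 had the most T and B cell marker counts and the fewest seminal vesicle counts of the 4, and also the most duct epithelium and the fewest adipocyte marker counts (114 CPM, against 258 to 277 in the other 3). Duct epithelium markers summed to 826 to 971 CPM at 3 months and 1046 to 1372 CPM at 21 months, with 3 of 5 called higher and none lower. Smooth muscle markers summed to 13520 to 13970 CPM and 14253 to 23052 CPM, with 5 of 9 called higher and none lower, and the aged library with the least Akr1b7 had the lowest sum of the 4 aged ones. Sertoli cell markers did not overlap between the ages either (34.8 to 40.6 and 41.9 to 64.3 CPM), with 1 of 6 called higher. The part of these markers in the fall of Akr1b7 was not tested.

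**Figure D3:**
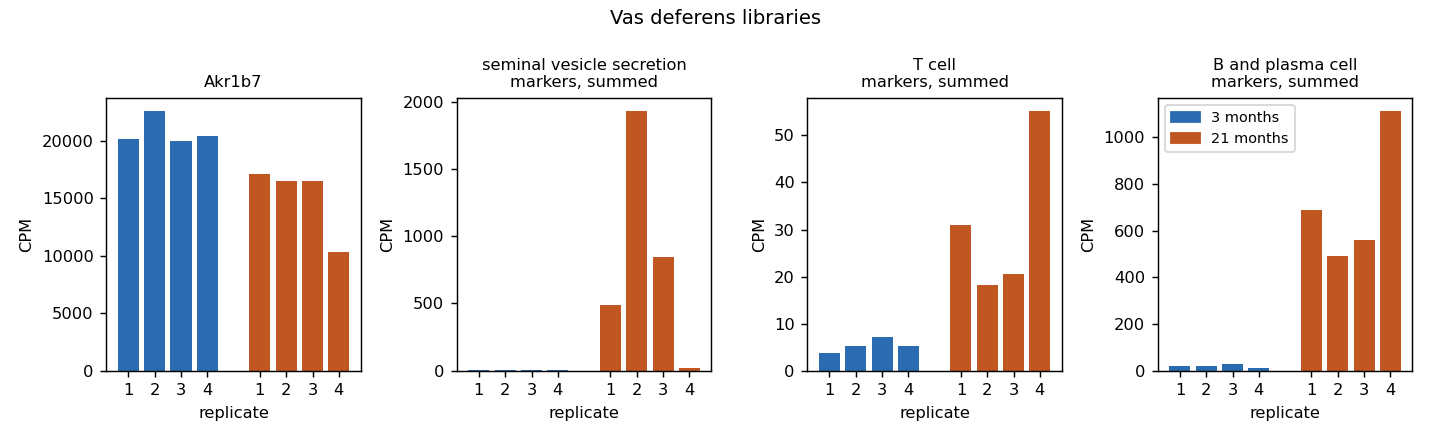
CPM of Akr1b7 and summed CPM of 3 marker lists in each vas deferens library (bars), at 3 and 21 months. Akr1b7 is at 10317 to 17071 CPM in the aged libraries and 19948 to 22576 in the young ones, and replicate 4 of the aged group has the least Akr1b7 and the tallest T cell and B and plasma cell bars.

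In the cauda none of 7 members was called, beside 0.128% of all genes by edgeR, with 2 members at an unadjusted edgeR p under 0.05 (Akr1b7 and Akr1c12), beside 10.5% of all genes, and 1 called by DESeq2, beside 2.14%. Akr1b7 measured 24.9 ± 2.39 CPM at 3 months and 46.3 ± 10.97 at 21 months, without overlap (log2 fold change 0.90, SE 0.18, edgeR adjusted p = 0.0904, and DESeq2 adjusted p = 0.00197). Its aged mean was 0.307% of that of the aged vas deferens. Akr1b8 had 8.96 CPM in the third young cauda library and 2.65 to 3.68 in the other 3, and macrophage markers summed to 3784 CPM in that library and 484 to 515 in the others. Without that library the log2 fold change of Akr1b7 was 0.91 (edgeR adjusted p = 0.0956). Smooth muscle markers in the cauda summed to 4974 to 7675 CPM at 3 months and 3357 to 4850 at 21 months, with none of 9 called. B and plasma cell markers summed to 13.1 to 27.4 and 40.3 to 239.9 CPM, with 1 of 7 called higher, and Leydig cell markers to 8.45 to 11.8 and 5.02 to 6.33 CPM, with none of 5 called. The part of these markers in the cauda values was not tested.

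In the corpus none of 7 members was called, beside 2.97% of all genes, and in the initial segment none of 7, beside 6.36%, with 1 member at an unadjusted edgeR p under 0.05 in each (Akr1c12 and Akr1b7, respectively), beside 17.3% and 19.1% of all genes. DESeq2 called no member in either, beside 7.26% and 7.13% of the genes it gave an adjusted p, but it gave none to Akr1b7 in the initial segment or to Akr1c18 in the corpus. Akr1c12 in the corpus measured 99.4 ± 4.24 and 81.9 ± 10.7 CPM (log2 fold change -0.29, edgeR adjusted p = 0.126). The Akr1b7 estimate in the initial segment rested on 1 young library at 2.71 CPM. In the efferent ductules none of 6 was called by edgeR, beside 6.99%, with 0 at an unadjusted edgeR p under 0.05, beside 25.1% of all genes, and 0 called by DESeq2, beside 17.5%. The aged libraries split there. Akr1b7 measured 5.18, 69.2, 133 and 9.56 CPM there, and Akr1c13 18.7, 8.01, 7.98 and 19.9. Basal cell markers, which summed to 1.32 to 2.16 CPM in the young libraries, reached 0.790, 10.5, 8.41 and 1.73 CPM in the same order of libraries, so the libraries high in Akr1b7 were those with more basal cell marker counts and less Akr1c13. In that order Sertoli cell markers summed to 136, 291, 327 and 153 CPM and duct epithelium markers to 1240, 958, 916 and 1373 CPM, so these lists split the libraries in the same way. Their part was not tested.

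**Figure D4:**
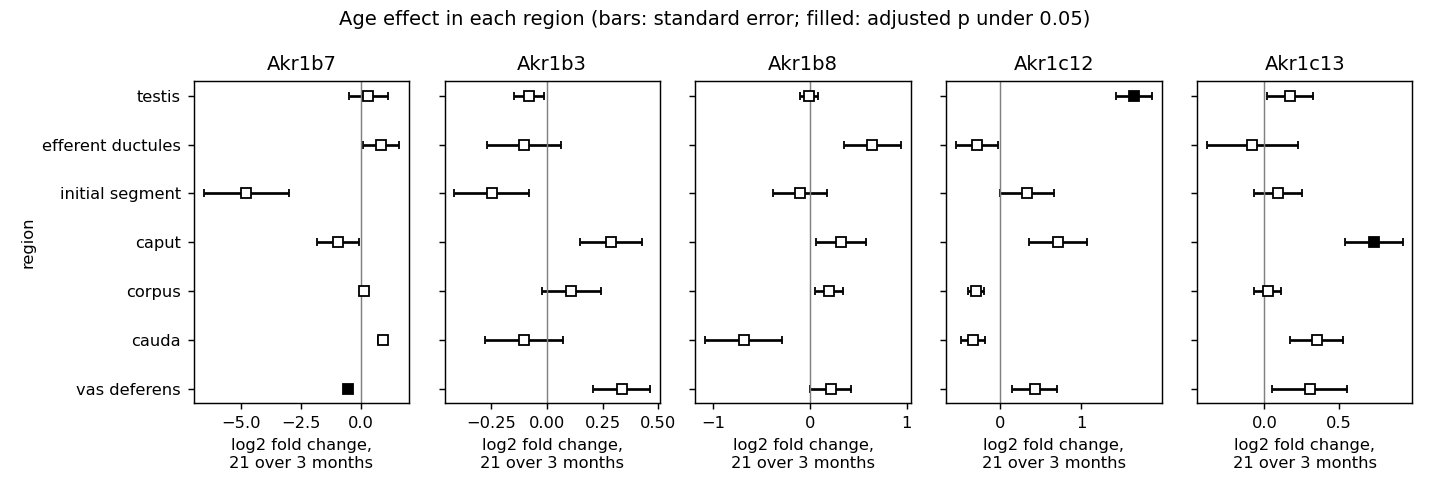
Log2 fold change of 21 over 3 months in each region for 5 members (squares), from edgeR, on axes whose range differs between panels. Bars show the SE, the size of the change divided by the square root of the F statistic. Filled squares have an adjusted p under 0.05. The 3 filled squares are Akr1c12 in the testis (1.65), Akr1c13 in the caput (0.73) and Akr1b7 in the vas deferens (-0.52).

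Whether a gene's response to age differed between regions was tested in 1 fit of the 56 libraries. It called 2 of 8 members, beside 20.2% of all genes. Akr1c12 was called (edgeR's quasi-likelihood test, Benjamini-Hochberg adjusted p = 0.00135, and 0.000143 to 0.0424 over the alternatives). Akr1b3 was also called (edgeR adjusted p = 0.0353), and its range over the alternatives, 0.0233 to 0.635, crossed the threshold. Akr1b7 was not (edgeR adjusted p = 0.279), nor was Akr1c13 (0.206), and their ranges over the alternatives, 0.00680 to 0.564 and 0.0245 to 0.634, crossed the threshold too. The libraries came from 4 mice of each age, and this test and those between regions treated all libraries as independent.

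Of the 9 other aldo-keto reductases, Akr1c19 was highest in the same segments as Akr1c12 and Akr1c13, with 293 ± 15.7 CPM in the corpus and 244 ± 41.6 in the cauda at 3 months. Akr1b10 was highest in the vas deferens (59.4 ± 2.28 CPM), where Akr1b7 had 20749 CPM. These 2 genes were identical at 849 of 951 aligned coding bases (89.27%), and whether reads of Akr1b7 were counted for Akr1b10 was not tested. Akr1cl was high in the testis (112 ± 10.3) and vas deferens (48.6 ± 4.54). None of the other aldo-keto reductases was called with age in the testis or vas deferens, where 8 and 6 were tested, beside 0.563% and 19.9% of all genes. Akr7a5 rose in the efferent ductules (log2 fold change 0.54, 1 of 7 called, beside 6.99% of all genes). Akr1cl fell in the initial segment (-3.26, 1 of 6 called, beside 6.36%), from 0.757 to 0.0630 CPM on average. Germ cell markers in the initial segment summed to 46.9 to 151 CPM at 3 months and 13.3 to 31.6 at 21 months, with 11 of 14 called lower, and their part in the fall of Akr1cl was not tested.

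Genes of neighbouring pathways were taken from lists. Among prostaglandin genes in the vas deferens, 1 of 21 rose and 4 fell: Ptgds, a prostaglandin D synthase, rose (log2 fold change 2.38), and those that fell included Ptgr1 (-0.74), the cyclooxygenase gene Ptgs1 (-0.56) and the prostaglandin F receptor gene Ptgfr (-2.25). Among genes of aldehyde and carbonyl metabolism there, 4 of 23 rose and none fell, namely Gsta4 (0.58), Adh1 (0.60), Aldh2 (0.45) and Cbr1 (0.61). Both shares are near the 19.9% of all genes called in the vas deferens, as is that of the steroid dehydrogenases and reductases, 3 of 17. The medians of the prostaglandin and aldehyde lists were -0.18 and 0.12, beside 0.02 over all genes tested. Of the steroid enzymes, Rdh16 rose (1.78) and Hsd17b11 (-0.36) and Hsd17b4 (-0.28) fell. Of 9 steroid receptor genes and partners 1 was called, Foxa1, which rose (1.30). In the testis Hsd3b6, a Leydig cell enzyme of steroid synthesis, rose (0.70, 1 of 16), as did Ptgds (0.44, 1 of 20) and Aldh3a1 (1.62, 1 of 23), beside 0.563% of all genes. In the caput Ptger1 fell (-1.52, 1 of 21) and Akr1a1 rose (0.47, 1 of 6), beside 8.14% of all genes.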

How the data were processed

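The authors made stranded total RNA libraries, sequenced them as paired-end reads, aligned them with Hisat2 to GRCm38 and deposited whole-number counts per Ensembl gene. HTSeq and cutadapt are named in the submitters' processing notes. The annotation release, counting mode and strand setting are not given in the sources used here. Labels name TRIzol and the paper's methods an RNeasy kit.

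Groups came from the labels. GENCODE M21 gave a symbol to 53274 genes. Library totals ran from 11125279 to 20561967 counts, and floors and ranges of counts cover counting error only. CPM used TMM factors over all 56 libraries. Ages were compared in each region, and regions at each age, by edgeR 4.0.16 (R 4.3.3) quasi-likelihood F-tests on genes that reached 10 counts in sum, called at a Benjamini-Hochberg adjusted p under 0.05 over all genes. DESeq2 1.42.0 and other settings were alternatives. Of the fits, only that of age in the vas deferens was tested on simulated data, with changes set in well-counted genes. Named genes were the 8 members, the 3 genes most correlated with each, and up to 4 called genes per list with the lowest adjusted p in regions described. Members and lists were chosen with earlier results of these data known. p-values measure the spread between libraries, which may be partly technical. Upstream sequence came from the RefSeq table for GRCm38.p6, which held 7 of the 8 members. Some results of the gene lists are not reported here.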

Additional observations from a re-analysis of the deposited data

Results flagged for a closer look

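In 9 of 74 groups of 4 libraries, 1 library lay far from the other 3 (Dixon's test), where chance gives about 1 in 20. Akr1b7 did so as the lowest aged vas deferens library at 10317 CPM (others 16480 to 17071), the highest young vas deferens library at 22576 (19948 to 20364), the highest young caput library at 52.7 (0.401 to 5.79) and the highest aged cauda library at 62.6 (38.8 to 42.1). Akr1b3 did so as the lowest young library of the testis at 59.3 and of the caput at 10.2. Akr1b8 did so at 8.96 in the young cauda, Akr1c12 at 0.655 in the young testis and Akr1c13 at 18.4 in the young efferent ductules.

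The effect of age differed among the 7 regions for Akr1c12 (edgeR's quasi-likelihood test, Benjamini-Hochberg adjusted p = 0.00135) and for Akr1b3 (edgeR adjusted p = 0.0353).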

How the results depend on the processing

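The rise of Akr1c12 in the testis held in all 16 alternatives that gave an adjusted p (log2 fold change 1.40 to 1.77, adjusted p up to 0.0171). DESeq2 with its default filter gave it no adjusted p, so its count of members called there was 0. Run without that filter, a setting added after seeing this, it called the gene (adjusted p = 8.84e-08). Counts of members called with age changed elsewhere as follows. In the initial segment the count was 1 with no filter and with an unadjusted p and 1.5-fold. In the caput it was 0 with library size only, and 0 to 2 with a library left out. In the cauda it was 1 with DESeq2 with or without its filter, with no filter and with the unadjusted p and 1.5-fold. In the vas deferens it was 0 with filterByExpr, with all 56 libraries in one fit, with the unadjusted p and 1.5-fold and with the replicate block, and 0 to 1 with a library left out. Deviations of same-numbered libraries all correlated above 0.1 in 1 of 21 region pairs at 3 months (corpus and cauda, lowest correlation 0.102), 0 of 21 at 21 months and 0 of 7 age pairs. In that 1 pair the replicate block changed no member's call, with adjusted p of 2.15e-07 for Akr1c12, 0.0384 for Akr1b7 and 0.494 for Akr1c13. In the other pairs not all same-numbered libraries passed this limit, which cannot show that the numbers do not name mice. The mean correlation was highest for caput and corpus at 3 months (0.188, and -0.0646 between different numbers). Under the block Akr1b7 in the vas deferens had an edgeR adjusted p of 0.0646. With a 4-fold limit, 50 region-pair tests were called at 3 months and 57 at 21 months. With a replicate number left out the calls were 83 to 90 at 3 months and 80 to 84 at 21 months. They were 97 without the second young caput library and 89 without the fourth aged vas deferens library, both added after seeing the data. DESeq2 gave no p for Akr1b7 in the 21 pairs at 3 months. The count of members whose age effect differed among regions was 1 with DESeq2 size factors, filterByExpr and no filter, and 1 with any replicate number left out. Where not stated, the cause was not tested. Library size alone shifted the median of all genes (log2) to -0.38 in efferent ductules, 0.19 in caput and -0.17 in corpus. The ratio of Akr1c12 to Akr1c13, compared after seeing the data, ranged with a library left out from 1.31 to 1.73 (log2) for testis, -0.37 to -0.28 for corpus, and for cauda from -0.76 to -0.61. By Spearman's correlation 1 of the 3 genes most like Akr1b3 was kept, and 0 for each of the other 5 members. Depth limits Akr1c6, with 15 counts in all libraries, and Akr1c18, with 100.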
